A study of Mus musculus with 29 samples.

Results

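Hedgehog signalling in bile duct fibroblasts was changed at different steps of the pathway in the 5 RNA-seq libraries compared here, out of 29 in the series. The 2 Gli3FF libraries come from mice with floxed Gli3, and the 3 SmoM2 libraries from mice with the SmoM2 form of Smoothened. FF is read as homozygous loxP-flanked alleles, by the convention of mouse genetics. All libraries also carry Pdgfra:CreERT2 and a Cre-dependent tdTomato reporter at Rosa26, and the 5 wild type libraries carry only these, apart from wild type replicate 5, whose description also names the SmoFF allele against its genotype label. Mesenchymal cells were sorted from the common bile duct, about 1000 per animal and library. Each library is therefore taken as 1 animal, with a doubt for Gli3FF replicate 2 that is given below. The labels used here give no age, sex, strain, Cre induction or interval after it. Members were chosen by the libraries alone: all 24383 genes that passed a filter on low counts, of 55401 entries in the tables, were compared.

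Hedgehog ligands bind Patched receptors and release Smoothened (Smo), which then keeps Gli transcription factors from being cut into repressors. Gli3 acts mainly as the repressor form, and Gli1 and Gli2 mainly as activators. SmoM2 is a constitutively active Smoothened that acts without ligand, upstream of all Gli proteins, while deletion of Gli3 removes the main repressor and leaves the receptor step untouched. Ptch1 and Hhip are feedback inhibitors of the pathway that it induces itself. In duct and gut walls the ligands come mostly from epithelium and act on the fibroblasts around it.

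Total counts were 27372016 and 35599465 in Gli3FF, 21406062 to 24475483 in SmoM2 and 21226029 to 30520596 in wild type, and levels are given in CPM, counts scaled to a common library size with TMM factors. Fibroblast markers such as Col1a1, Dcn and Pdgfra were high in all 10 libraries, and markers of hepatocytes apart from Cyp2e1, of endothelium apart from Tek and Kdr, and of erythroid cells apart from Alas2 (up to 9.89 CPM, in SmoM2 replicate 3) were at 3.68 CPM or less. Gli3FF replicate 1 held 39.1% of its counts on a ribosomal RNA locus and 17544 detected genes, and replicate 2 held 24.5% and 22143 genes. The SmoM2 libraries held 12.0 to 22.6% and 21965 to 28796 genes. Gli3FF replicate 2 held the female transcript Xist at 257 CPM together with Y-linked transcripts, which 1 mouse does not usually express together, while the other 9 libraries held Xist at 0.318 CPM or less. Whether Gli3FF replicate 2 holds cells of more than 1 animal was not tested. The wild type libraries fell into 2 sets by 852 pseudogenes, with a median log2 CPM of 1.05 to 1.24 in replicates 1 to 3 and of -2.35 and -2.22 in replicates 4 and 5. By the same genes the SmoM2 libraries, at 0.41 to 1.00, lay near the first set and the Gli3FF libraries, at -1.79 and -1.48, near the second. Genotype and this split cannot be told apart in the direct comparison, so the difference between routes was also taken with SmoM2 set against wild type 1 to 3 and Gli3FF against wild type 4 and 5 (matched wild type sets).

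By edgeR's test more genes were called against wild type in Gli3FF than in SmoM2 fibroblasts, an order that limma voom turned round, and Bmp4, Ntrk2 and Mfge8 were higher and Sfrp2, Ahnak2 and Fgf9 lower in Gli3FF than in SmoM2. Compared directly, 382 genes were higher and 324 lower in Gli3FF than in SmoM2, 1.57% and 1.33% of the genes tested, at a Benjamini-Hochberg adjusted p under 0.05 in edgeR's quasi-likelihood test. Against wild type, Gli3FF had 509 genes higher and 576 lower (2.09% and 2.36%), and SmoM2 had 31 higher and 19 lower (0.127% and 0.0779%). Both of these comparisons use the same 5 wild type libraries, so a shared direction between them is not independent evidence. Of the 9714 genes whose mean log2 CPM reached 3, 365 were higher and 233 lower in the direct comparison. Against wild type 446 of them were higher and 438 lower in Gli3FF, and 30 and 19 in SmoM2. Shares over all genes are therefore a low yardstick for lists of well-expressed genes. With limma voom the counts against wild type were 1293 for Gli3FF and 1456 for SmoM2, and 1721 genes were called in the direct comparison. DESeq2 called 2372, 276 and 1988 genes. Counts of list members called by these tests are to be read beside these totals over the 24383 genes tested. For an unadjusted p under 0.05 no share over all genes is given. The direct count of 706 genes became 134 without Gli3FF replicate 1, 369 and 310 without SmoM2 replicates 1 and 2, and 592 to 686 without each other library. The Gli3FF count of 1085 became 319 and 615 without Gli3FF replicates 1 and 2. The SmoM2 count of 50 became 17, 19 and 30 without SmoM2 replicates 1, 2 and 3, and 25, 33, 28 and 30 without wild type replicates 1, 2, 3 and 4. With matched wild type sets 318 genes differed between the routes.

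Genes were put to 1 route only when called against wild type for that route, not called for the other, and called in the direct comparison in the matching direction. By this rule 508 genes (2.08%) were called for Gli3 deletion only, 208 higher and 300 lower, and 336 of them were protein-coding. By the same rule 9 genes (0.0369%) were called for SmoM2 only, 2 higher and 7 lower. A gene not called for the other route may still have changed there, and not only by a small amount. On simulated counts the direct comparison recovered 31 of 100 genes changed 4-fold. Another 32 genes were called for both routes, all in the same direction in both, and no gene was called in opposite directions. For 545 genes called in Gli3FF and 9 called in SmoM2, the direct comparison did not separate the routes, so they cannot be given to 1 route. With matched wild type sets, 499 of the 508 Gli3FF-only genes kept the sign of their direct difference and 179 were still called. The group held 86 genes without Gli3FF replicate 1, and 322 and 265 without SmoM2 replicates 1 and 2. The SmoM2-only group held 4 genes without SmoM2 replicate 1.

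The targeted gene, Gli3 on chromosome 13 (chr13:15463235-15730026, plus strand, mm10), had 14.4 and 12.3 CPM in Gli3FF, 33.9, 26.6 and 24.0 in SmoM2 and 44.9, 32.4, 30.7, 41.4 and 32.6 in wild type. Both Gli3FF libraries lay below all others. Gli3 was lower in Gli3FF than in wild type in edgeR's test (log2 change -1.45, SE 0.39, adjusted p = 0.0317), but the call was lost without Gli3FF replicates 1 or 2, or wild type replicate 1 (adjusted p 0.0659 to 0.223). The labels do not name the floxed part of the gene, so transcripts that lack only that part may still be counted. Smo, the receptor component that SmoM2 replaces in function, had 33.3 and 46.5 CPM in Gli3FF, 49.4, 52.8 and 37.5 in SmoM2 and 22.6 to 36.2 in wild type, and its direct difference was not called (edgeR adjusted p = 0.743).

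Feedback inhibitors of the pathway stood higher in SmoM2 than in Gli3FF in every library, but the direct comparison did not call them. Ptch1, the ligand receptor, had 83.3 and 126 CPM in Gli3FF, 273, 385 and 247 in SmoM2 and 20.5, 37.0, 30.4, 29.9 and 36.0 in wild type. All 3 groups were apart, with Gli3FF between the others. Ptch1 rose in SmoM2 (log2 change 3.29, SE 0.35, adjusted p = 6.14e-05) and in Gli3FF (log2 change 1.77, SE 0.37, adjusted p = 0.00591), and its direct log2 difference was -1.53 (SE 0.46, adjusted p = 0.0749). The Gli3FF call was lost without Gli3FF replicate 2 (adjusted p 0.117) and with wild type 4 and 5 as its controls (adjusted p 0.0797). Hhip, a membrane protein that traps Hedgehog ligands, had 32.7 and 21.2 CPM in Gli3FF, 196, 284 and 182 in SmoM2 and 1.37, 7.66, 3.59, 1.27 and 14.4 in wild type. Both mutant groups lay above every wild type library, and every SmoM2 library above both Gli3FF libraries. Hhip rose in SmoM2 (log2 change 5.29, SE 0.75, adjusted p = 0.000873), whereas the Gli3FF value missed the threshold (log2 change 2.25, SE 0.75, adjusted p = 0.0967) and passed it without wild type replicate 5 (adjusted p 0.0253). The direct difference of Hhip (log2 change -3.03, SE 0.98, adjusted p = 0.106) was also not called by edgeR, while DESeq2 called it and that of Ptch1 (adjusted p 0.0304 and 0.0124).

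**Figure D1:**
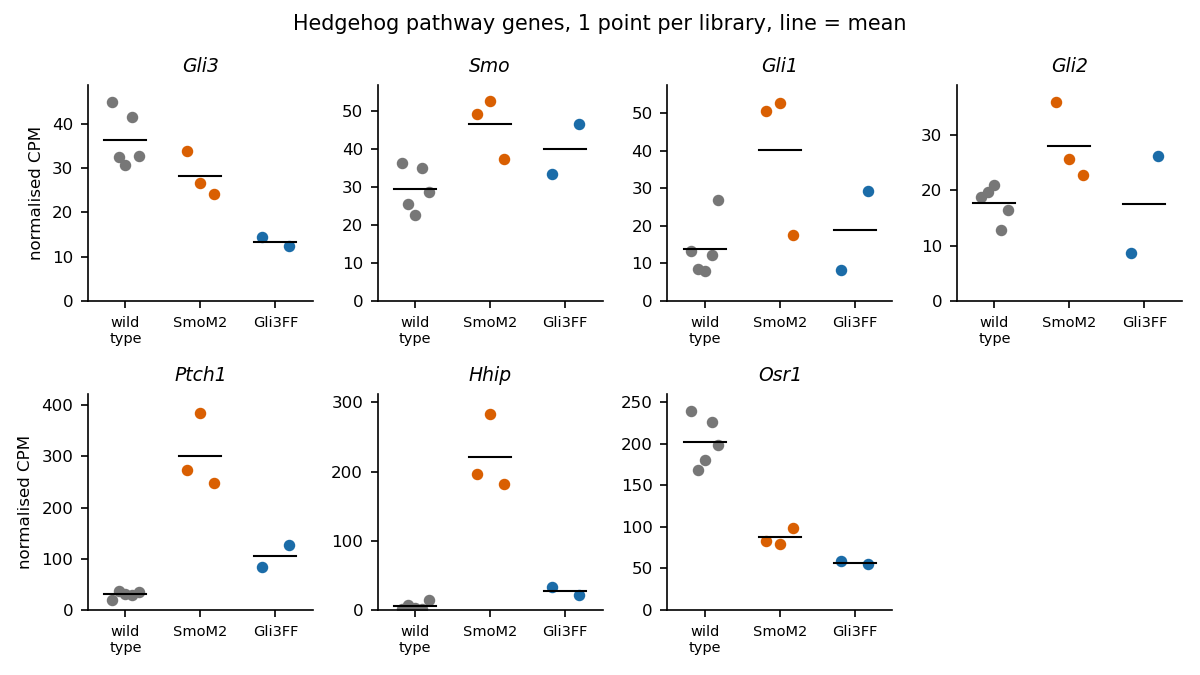
Normalised CPM of 7 Hedgehog pathway genes, with 1 point per library (5 wild type, 3 SmoM2, 2 Gli3FF) and a line at each group's mean, on linear axes from 0. Ptch1 and Hhip are highest in the 3 SmoM2 libraries, Gli3 is lowest in the 2 Gli3FF libraries, and Osr1 is lower in both mutant groups than in wild type.

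Most other members of the pathway were not called in the direct comparison, with the target Bmp4 and the transducer Gpr161 as exceptions. Gli1, the classical transcriptional readout, had 8.31 and 29.3 CPM in Gli3FF, 50.5, 52.6 and 17.5 in SmoM2 and 7.95 to 26.9 in wild type, with overlap among all groups and a direct adjusted p of 0.504 in edgeR's test. Gli2 (direct log2 difference -0.69, SE 0.55), Sufu, which holds Gli proteins in check (-0.21, SE 0.51), the transcription factor Foxf1 (-1.07, SE 0.49) and the survival gene Bcl2 (-0.45, SE 0.61) were not called in any of the comparisons by edgeR. Against wild type in SmoM2, limma voom called Gli1, Foxf1 and Bcl2 (adjusted p 0.00305, 0.0141 and 0.041), and DESeq2 called Foxf1 (adjusted p 0.025). Gli1 was also called there without a filter (adjusted p 0.0363) and Foxf1 with only the groups compared in the fit (adjusted p 0.0497). Of 17 tested Hedgehog target genes, 1 (Bmp4) was higher and 0 lower in the direct comparison, against 1.57% and 1.33% of all genes. DESeq2 and limma voom called 4 each, against 1988 and 1721 of 24383 genes. Against wild type 2 rose and 1 fell in Gli3FF by edgeR, against 2.09% and 2.36% of all genes. DESeq2 called 4 and limma voom 6 of them, against 2372 and 1293 of 24383 genes. In SmoM2 3 rose and 1 fell by edgeR, against 0.127% and 0.0779% of all genes, with 10 at an unadjusted p under 0.05. DESeq2 called 5 and limma voom 11 there, against 276 and 1456 of 24383 genes. The median direct log2 difference of the list was -0.68, against -0.28 over all genes tested and 0.04 over the 9714 genes whose mean log2 CPM reached 3. For 8 of the 17 both Gli3FF libraries lay below all SmoM2 libraries, against 22.3% of all genes, and for 4 they lay above, against 14.1%. Over those 9714 genes they lay below for 1968 and above for 2381. Of 29 tested Hedgehog receptors and transducers, 0 were higher and 1, the ciliary receptor gene Gpr161, was lower by edgeR (log2 difference -5.26, adjusted p = 0.0399). DESeq2 and limma voom called 6 of the 29 each, against the same 1988 and 1721 genes. Gpr161 was low in all groups, with 0.159 and 0 CPM in Gli3FF, 4.18, 3.87 and 1.43 in SmoM2 and 1.80 to 3.72 in wild type.

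A Hedgehog target that went the other way was Bmp4, a BMP ligand and a gene under Gli3 repression in the limb bud. Bmp4 had 272 and 229.8 CPM in Gli3FF, 57.8, 53.6 and 39.9 in SmoM2 and 28.4, 27.7, 27.3, 29.2 and 37.6 in wild type. The Gli3FF libraries lay far above the rest, and the SmoM2 libraries just above wild type. Bmp4 rose in Gli3FF (log2 change 3.06, SE 0.30, adjusted p = 1.4e-06) and differed between the routes (log2 change 2.31, SE 0.34, adjusted p = 0.000399), a call that every other setting and left-out library kept, whereas the SmoM2 value was not called (adjusted p = 0.467). Grem1, a BMP antagonist that is likewise repressed by Gli3 in the limb, had 118 and 59.7 CPM in Gli3FF, 42.8, 5.72 and 16.5 in SmoM2 and 2.003 to 12.5 in wild type. It rose in Gli3FF (log2 change 3.47, SE 0.61, adjusted p = 0.00116), and the direct difference was not called (adjusted p = 0.135), although it passed without SmoM2 replicate 1 (adjusted p 0.0496). Chrdl1, another BMP antagonist, had 206 and 128 CPM in Gli3FF, 48.2, 50.8 and 63.3 in SmoM2 and 53.0 to 75.9 in wild type, and differed between the routes (log2 change 1.63, SE 0.34, adjusted p = 0.00892) except without Gli3FF replicate 1 (adjusted p 0.302). Of 9 tested genes repressed by Gli3 in the limb bud, 3 rose in Gli3FF (Bmp4, Grem1 and Ptch1) and 1 in SmoM2 (Ptch1), and none fell. Over all genes 2.09% rose in Gli3FF and 0.127% in SmoM2. Of 24 BMP pathway genes, 6 rose and 2 fell in Gli3FF, against 2.09% and 2.36% of all genes. In SmoM2 0 were called by edgeR, with 6 at an unadjusted p under 0.05. DESeq2 called 1 and limma voom 5, against 276 and 1456 of 24383 genes.

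Both routes shared a set of 32 genes, 24 higher and 8 lower than in wild type. The change was larger in Gli3FF for 19 of them and larger in SmoM2 for 13. Mrap2, an accessory protein of melanocortin and related receptors, had 14.6 and 7.99 CPM in Gli3FF, 48.8, 23.6 and 46.5 in SmoM2 and 0, 0, 0.599, 0.0269 and 0 in wild type, so it was close to absent without either allele. It rose in Gli3FF (log2 change 6.56, SE 1.24, adjusted p = 0.00225) and in SmoM2 (log2 change 8.38, SE 1.26, adjusted p = 0.00172), and the routes were not called apart (adjusted p = 0.488). Pla2g7, the secreted platelet-activating factor acetylhydrolase, had 106 and 69.4 CPM in Gli3FF, 35.4, 41.5 and 62.0 in SmoM2 and 0.0371, 2.01, 1.11, 0.619 and 0.912 in wild type. Its log2 changes were 6.56 (SE 0.75) in Gli3FF and 5.64 (SE 0.70) in SmoM2. The leptin receptor gene Lepr had 224 and 203 CPM in Gli3FF, 130.2, 141 and 100.0 in SmoM2 and 9.16 to 44.7 in wild type, with both mutant groups above every control. Its SmoM2 call (adjusted p = 0.0453) was lost without Gli3FF replicates 1 or 2, or SmoM2 replicates 1, 2 or 3, or wild type replicates 1, 2, 3 or 4 (adjusted p 0.0513 to 0.213).

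Signalling genes of several families were in this shared set. Inhba, which encodes the activin A subunit, rose by a log2 of 2.42 in Gli3FF and 3.22 in SmoM2, and its antagonist Fst changed by -4.14 and -2.78. Fst had 4.45 and 0.631 CPM in Gli3FF, 6.56, 6.90 and 5.97 in SmoM2 and 23.2 to 71.0 in wild type, with every mutant library below every control. The Inhba calls were lost without Gli3FF replicates 1 or 2, or wild type replicates 1, 2, 3 or 5 (adjusted p 0.053 to 0.354) for Gli3FF, and without SmoM2 replicates 1 or 2, or wild type replicates 1, 2, 3 or 5 (adjusted p 0.0555 to 0.144) for SmoM2. The Fst call in SmoM2 was lost without SmoM2 replicates 1, 2 or 3, or wild type replicates 1, 3, 4 or 5 (adjusted p 0.056 to 0.208). Rgs2, a regulator of G protein signalling, rose by 3.36 (SE 0.47) and 2.67 (SE 0.43). Osr1, a mesenchymal transcription factor on the Hedgehog target list, had 58.5 and 55.6 CPM in Gli3FF, 83.1, 79.9 and 98.6 in SmoM2 and 239, 169, 180.2, 225 and 198 in wild type. It fell in Gli3FF (log2 change -1.83, SE 0.24, adjusted p = 8.38e-05) and in SmoM2 (log2 change -1.21, SE 0.20, adjusted p = 0.00544), the latter not called without SmoM2 replicates 1 or 2 (adjusted p 0.0725 to 0.0904). Myl9, a myosin light chain of contractile cells, rose by 2.70 and 1.58, and its SmoM2 call was lost without SmoM2 replicates 1, 2 or 3, or wild type replicates 1, 3, 4 or 5 (adjusted p 0.0682 to 0.128).

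**Figure D2:**
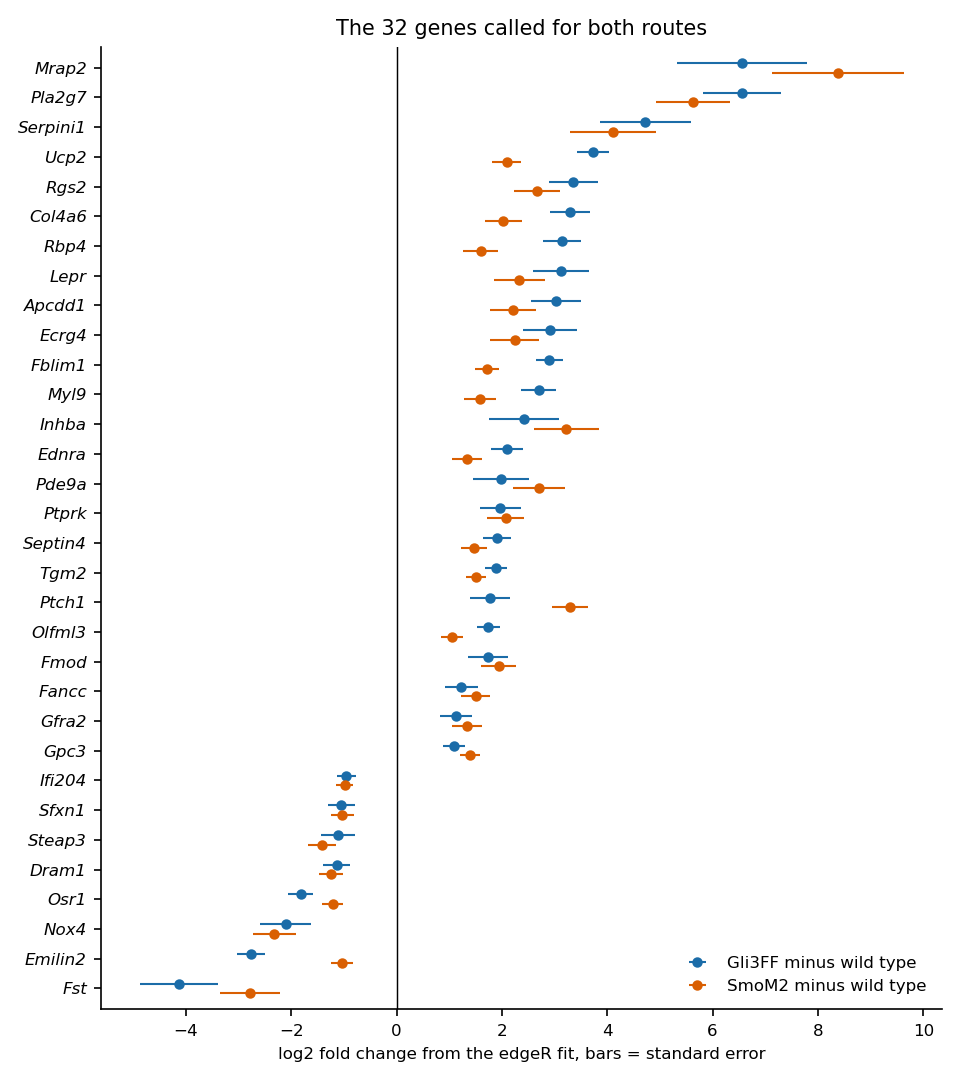
Log2 fold changes against wild type from the edgeR fit, with standard errors as bars, for the 32 genes called for both routes, in Gli3FF (2 libraries) and SmoM2 (3 libraries), ordered by the change in Gli3FF. All 32 pairs lie on the same side of 0, and both routes share the 5 wild type libraries.

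Only 4 of the 32 shared genes were also called in the direct comparison, and in each the change was larger in Gli3FF. Ucp2, a mitochondrial carrier, had 358 and 233 CPM in Gli3FF, 71.6, 91.5 and 122 in SmoM2 and 18.9 to 26.1 in wild type, in 3 separate steps. Its direct difference in edgeR's test (log2 change 1.64, SE 0.35, adjusted p = 0.00986) was lost without Gli3FF replicate 1, or SmoM2 replicates 1 or 2 (adjusted p 0.0554 to 0.278). Emilin2, an extracellular matrix glycoprotein, had 27.0 and 20.0 CPM in Gli3FF, 72.2, 78.5 and 82.9 in SmoM2 and 129 to 209 in wild type, and its direct difference (log2 change -1.73, SE 0.27, adjusted p = 0.000557) was kept without each library. Its fall in SmoM2 (adjusted p = 0.0313) was lost without SmoM2 replicates 1, 2 or 3, or wild type replicates 1, 2, 3 or 4 (adjusted p 0.0554 to 0.223). Fblim1, a filamin-binding adhesion protein, differed by 1.18 (adjusted p = 0.0269), lost without Gli3FF replicates 1 or 2, or SmoM2 replicates 1, 2 or 3 (adjusted p 0.0731 to 0.248). Rbp4, the retinol carrier, differed by 1.54 (adjusted p = 0.0451), lost without Gli3FF replicates 1 or 2, or SmoM2 replicates 1, 2 or 3, or wild type replicates 1 or 3 (adjusted p 0.0562 to 0.52), and its SmoM2 call was lost without SmoM2 replicates 1, 2 or 3, or wild type replicates 1, 3, 4 or 5 (adjusted p 0.0662 to 0.163).

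Because these genes moved together, the 250 bases before their RefSeq starts (GRCm38.p6) were searched on both strands for the Gli consensus letters GACCACCCA and for their shorter core CCACCCA, which lies inside the longer word. The core was found in 9.29% of the 27025 genes with a promoter in the table and in 3 of 25 shared genes with one (12.0%), namely Mrap2, Dram1 and Sfxn1. Among Gli3FF-only genes 26 of 261 held the core (9.96%), and among SmoM2-only genes 0 of 7. Of 10 Hedgehog target genes with a promoter 0 held it, so matches in this window do not mark the known targets. The longer word was found in 0.255% of all genes with a promoter, in 0 of the 261 Gli3FF-only genes and in 1 shared gene, Sfxn1. Sfxn1, a mitochondrial serine carrier, fell in both routes (log2 changes -1.05 and -1.04). The Sfxn1 calls were lost without Gli3FF replicates 1 or 2 (adjusted p 0.158 to 0.163) in Gli3FF and without Gli3FF replicates 1 or 2, or SmoM2 replicates 1, 2 or 3, or wild type replicates 1, 2, 3, 4 or 5 (adjusted p 0.0555 to 0.333) in SmoM2. Mrap2 and Sfxn1 are printed as the shared genes with a match, and Ptch1 and Bmp4 as the shared and the Gli3FF-only target in which these letters were not found in this window. Capitals mark the match, which reads on the opposite strand in both genes and begins 150 bases before the start of Mrap2 (chr9:87144056-87144305, plus strand) and 227 bases before that of Sfxn1 (chr13:54071595-54071844, plus strand). The windows of Ptch1 and Bmp4 are chr13:63565736-63565985, minus strand, and chr14:46390670-46390919, minus strand. That of Ptch1 lies inside its annotated span (chr13:63508328-63573598), and starts further upstream were not searched.
Mrap2: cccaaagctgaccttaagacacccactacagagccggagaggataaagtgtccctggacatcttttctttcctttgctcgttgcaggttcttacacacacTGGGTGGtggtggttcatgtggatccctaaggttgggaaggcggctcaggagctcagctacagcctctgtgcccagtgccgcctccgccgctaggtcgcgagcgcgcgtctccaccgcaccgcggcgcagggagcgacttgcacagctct
Sfxn1: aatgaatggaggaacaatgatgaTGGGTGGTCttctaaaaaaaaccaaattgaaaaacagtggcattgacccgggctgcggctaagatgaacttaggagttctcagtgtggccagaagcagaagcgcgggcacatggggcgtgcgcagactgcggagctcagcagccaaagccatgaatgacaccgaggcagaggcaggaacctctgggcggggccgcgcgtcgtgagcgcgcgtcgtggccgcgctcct
Ptch1: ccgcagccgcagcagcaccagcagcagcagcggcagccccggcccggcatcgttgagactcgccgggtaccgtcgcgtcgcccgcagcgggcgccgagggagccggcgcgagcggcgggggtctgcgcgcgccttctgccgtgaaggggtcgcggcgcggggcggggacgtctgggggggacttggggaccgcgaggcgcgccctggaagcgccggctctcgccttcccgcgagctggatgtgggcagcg
Bmp4: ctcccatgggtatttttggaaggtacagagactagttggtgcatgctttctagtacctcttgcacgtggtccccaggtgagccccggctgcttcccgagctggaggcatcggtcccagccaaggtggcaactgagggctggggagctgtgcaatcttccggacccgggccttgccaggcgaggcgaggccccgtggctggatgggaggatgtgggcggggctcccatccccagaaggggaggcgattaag

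Of 24 tested fibroblast identity genes, 3 were lower in Gli3FF than in SmoM2, against 1.33% of all genes, and these (Sfrp2, Pi16 and Dpp4) were called for Gli3 deletion only. For all 3, every SmoM2 library also lay below every wild type library, so the routes differed in degree. A member called in the other direction was Gpx3, a secreted glutathione peroxidase (log2 difference 1.72, adjusted p = 0.0205), against 1.57% of all genes. The median direct log2 difference of the list was 0.02, against -0.28 over all genes. Both Gli3FF libraries lay above all SmoM2 libraries for 8 members and below for 6, against 14.1% and 22.3% of all genes. Of the 9714 genes whose mean log2 CPM reached 3, they lay above for 2381 and below for 1968. Sfrp2, a secreted Wnt modulator, had 0.914 and 1.23 CPM in Gli3FF, 41.6, 71.3 and 78.4 in SmoM2 and 245, 215, 176, 157 and 120.0 in wild type. The groups formed 3 separate steps, with Gli3FF near 0. The direct difference (log2 change -5.89, SE 0.58, adjusted p = 2.78e-06) was kept in every setting, and the SmoM2 value (log2 change -1.52, SE 0.36, adjusted p = 0.0918) missed the threshold in edgeR's test but was called by DESeq2 (adjusted p 0.00306). Pi16, a marker of adventitial fibroblasts, had 77.4 and 69.3 CPM in Gli3FF, 487, 582 and 740.1 in SmoM2 and 987 to 1408 in wild type, again with SmoM2 between the others. Its direct difference (log2 change -3.04, SE 0.54, adjusted p = 0.00207) was lost without Gli3FF replicate 1 (adjusted p 0.0585). Dpp4, a membrane peptidase found on the same fibroblasts, had 0 and 2.35 CPM in Gli3FF, 25.5, 22.8 and 35.3 in SmoM2 and 68.5 to 116 in wild type (log2 change -4.54, SE 0.82, adjusted p = 0.00242), a call lost when only the Gli3FF and SmoM2 libraries entered the fit (adjusted p 0.117). Ccn3, a matricellular protein outside that list, had 3.66 and 2.66 CPM in Gli3FF, 35.5, 41.6 and 71.4 in SmoM2 and 144 to 318 in wild type, and its direct difference (-3.97, adjusted p = 0.00986) was lost without Gli3FF replicates 1 or 2 (adjusted p 0.0939 to 0.157). Of the 24 fibroblast identity genes, 4 rose and 8 fell in Gli3FF against wild type, against 2.09% and 2.36% of all genes. In SmoM2 0 were called by edgeR, with 14 at an unadjusted p under 0.05. DESeq2 called 6 and limma voom 14, against 276 and 1456 of 24383 genes.

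Other genes fell in Gli3FF and were not called in SmoM2. Ahnak2, a large scaffold protein, had 9.78 and 11.0 CPM in Gli3FF, 166, 126 and 107 in SmoM2 and 154, 138, 118, 171 and 136 in wild type (log2 change -3.68, SE 0.29, adjusted p = 1.13e-07). SmoM2 and wild type overlapped, and both Gli3FF libraries lay far below them. Adgrd1, an adhesion G protein-coupled receptor, had 58.7 and 52.2 CPM in Gli3FF, 339.7, 427 and 417 in SmoM2 and 532, 539.6, 570.0, 513 and 534 in wild type (log2 change -2.83, SE 0.27, adjusted p = 1.35e-06), so all SmoM2 libraries also lay below wild type. Fn1, the fibronectin gene, had 405 and 359 CPM in Gli3FF, 996, 1314 and 1555 in SmoM2 and 1228 to 2389 in wild type, and its direct difference (-1.75, adjusted p = 0.00781) was lost without Gli3FF replicates 1 or 2 (adjusted p 0.0695 to 0.118). Nhsl1 and the bicarbonate transporter Slc4a4 changed by -4.52 and -3.37 on the log2 scale in Gli3FF against wild type, with direct differences of -3.52 (SE 0.49) and -2.44 (SE 0.38). Zfp423, a transcription factor of preadipocytes, had 7.75 and 4.66 CPM in Gli3FF, 49.8, 57.7 and 37.96 in SmoM2 and 31.7 to 36.8 in wild type (log2 change -2.97, SE 0.43, adjusted p = 0.000318). The direct calls of Ahnak2, Adgrd1, Nhsl1, Slc4a4 and Zfp423 were kept in every other setting and without each library.

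Several Wnt genes and the growth factor gene Fgf9 were lower in Gli3FF than in SmoM2. Of 25 tested Wnt ligands and modulators, 0 were higher and 4 lower (Sfrp2, Wnt10b, Wnt5a and Rspo1), against 1.57% and 1.33% of all genes. All 4 were Gli3FF-only, as were 2.08% of all genes, and the median direct log2 difference of the list was -0.49, against -0.28 over all genes. The ligand gene Wnt10b had 0 counts in both Gli3FF libraries, 5.41, 8.51 and 9.01 CPM in SmoM2 and 12.1 to 21.0 in wild type. Its SmoM2 mean was 137-fold above a floor of 3 counts over both Gli3FF libraries, a ratio that leaves out the spread between libraries. Its call (adjusted p = 0.0135) was lost without Gli3FF replicates 1 or 2 (adjusted p 0.094 to 0.22). Wnt5a, a ligand of the non-canonical branch, had 84.7 and 84.4 CPM in Gli3FF, 199, 213 and 185 in SmoM2 and 145 to 184 in wild type. It differed between the routes (log2 change -1.23, SE 0.24, adjusted p = 0.005), except without Gli3FF replicate 1 (adjusted p 0.124). Rspo1, which enhances Wnt signalling, had 13.1 and 2.21 CPM in Gli3FF and 34.4, 47.8 and 41.7 in SmoM2, and its call (adjusted p = 0.019) was lost without Gli3FF replicate 2, or SmoM2 replicate 2 (adjusted p 0.0523 to 0.148). Fgf9, a fibroblast growth factor, had 2 counts in each Gli3FF library (0.0795 and 0.0701 CPM), 24.2, 33.6 and 34.6 CPM in SmoM2 and 8.78 to 19.6 in wild type (log2 change -8.60, SE 1.38, adjusted p = 0.000802), and every setting kept this call. Wif1, a Wnt inhibitor and Wnt target, moved in the other direction, with 439.7 and 442 CPM in Gli3FF, 160.2, 91.9 and 161 in SmoM2 and 16.4 to 32.5 in wild type. It rose in Gli3FF (log2 change 4.18, SE 0.64, adjusted p = 0.000351), and the direct difference was not called (adjusted p = 0.249).

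Genes that were higher and called for Gli3 deletion only included a receptor, a complement regulator and secreted proteins. Ntrk2, the receptor of brain-derived neurotrophic factor, had 586 and 494 CPM in Gli3FF, 124, 63.2 and 94.6 in SmoM2 and 107, 106, 107, 92.7 and 108 in wild type (log2 change 2.52, SE 0.38, adjusted p = 0.000399). The Gli3FF libraries lay far above all 8 others, which overlapped, and the call was kept in every setting. Cd59a, which protects cells from the complement attack complex, had 99.5 and 76.0 CPM in Gli3FF, 27.7, 18.6 and 36.9 in SmoM2 and 21.5 to 30.7 in wild type (log2 change 1.66, SE 0.32, adjusted p = 0.00422), a call lost without Gli3FF replicate 1 (adjusted p 0.132). Of 18 tested complement genes, 4 (Cd59a among them) were higher and 0 lower in Gli3FF than in SmoM2, against 1.57% and 1.33% of all genes, with a median log2 difference of 0.82, against -0.28 over all genes. Mfge8, a secreted glycoprotein that bridges dying cells and phagocytes, had 697 and 624 CPM in Gli3FF, 281, 215 and 303 in SmoM2 and 153 to 182 in wild type. Its direct difference (log2 change 1.31, SE 0.23, adjusted p = 0.002) was lost without Gli3FF replicate 1 (adjusted p 0.0562). The methyltransferase gene Inmt had 3155 and 1933 CPM in Gli3FF, 406, 349 and 484 in SmoM2 and 415 to 629.6 in wild type (log2 change 2.62, SE 0.49, adjusted p = 0.00312), lost without Gli3FF replicate 1 (adjusted p 0.079). Col4a5, a basement membrane collagen chain, had 178 and 207 CPM in Gli3FF, 79.6, 89.9 and 55.3 in SmoM2 and 44.5 to 60.0 in wild type (log2 change 1.36, SE 0.26, adjusted p = 0.0043), and its call was kept without each library.

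**Figure D3:**
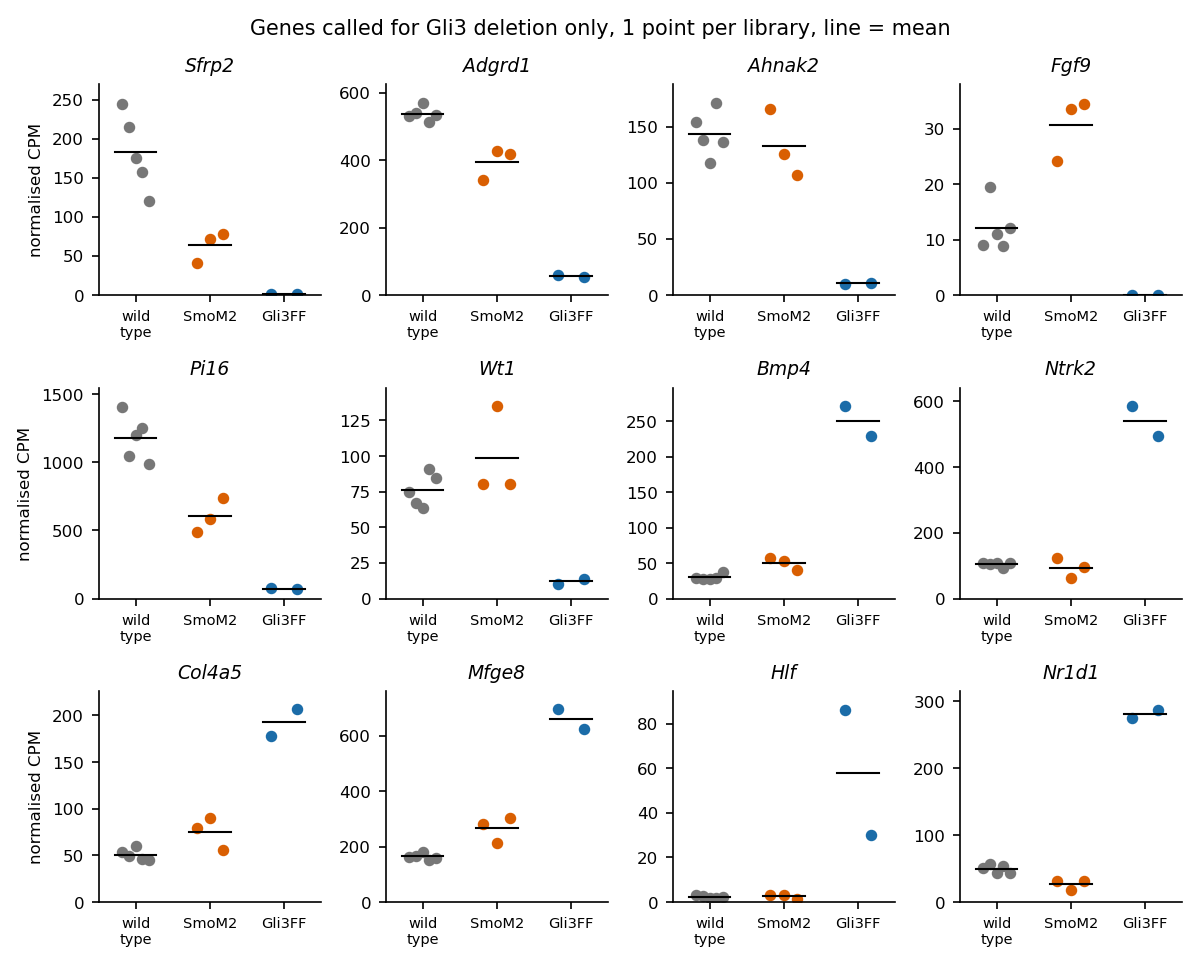
Normalised CPM of 12 genes called for Gli3 deletion only, with 1 point per library (5 wild type, 3 SmoM2, 2 Gli3FF) and a line at each group's mean, on linear axes from 0. The first 6 genes are lowest in both Gli3FF libraries and the last 6 are highest there. The SmoM2 libraries overlap wild type for Ahnak2, Wt1, Ntrk2, Col4a5 and Hlf. They lie between the groups for Sfrp2, Adgrd1, Pi16, Bmp4 and Mfge8, and beyond wild type, away from Gli3FF, for Fgf9 and Nr1d1.

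Of the 9 genes called for SmoM2 only, 7 were lower than in wild type and 2 higher. Hp, the acute-phase protein haptoglobin, had 20.9, 9.17 and 29.2 CPM in SmoM2, 129 and 105 in Gli3FF and 209, 219.6, 217, 199.9 and 214 in wild type. Every SmoM2 library lay below every other library, and both Gli3FF libraries lay below wild type without passing the test (adjusted p = 0.331). Hp fell in SmoM2 (log2 change -3.42, SE 0.46, adjusted p = 0.000594) and differed from Gli3FF (log2 change 2.57, SE 0.49, adjusted p = 0.00395), the latter except without Gli3FF replicate 1 (adjusted p 0.0583). Mpp6, a membrane scaffold protein, had 1.44, 16.3 and 9.53 CPM in SmoM2, 112 and 113 in Gli3FF and 97.3, 98.8, 81.6, 120.2 and 122 in wild type. Gli3FF lay within the wild type range, and the direct difference was called (log2 change 3.63, SE 0.50, adjusted p = 0.000218). Gsdme, a pore-forming gasdermin, had 8.30, 27.2 and 18.4 CPM in SmoM2, 72.2 and 99.8 in Gli3FF and 67.6 to 102 in wild type (log2 change 2.26, SE 0.42, adjusted p = 0.00332), and its fall in SmoM2 was lost without SmoM2 replicate 1 (adjusted p 0.0613). The annotated spans of Mpp6 (chr6:50110241-50198939, plus strand) and Gsdme (chr6:50188888-50263862, minus strand) overlap. With strandedness unknown, some reads may be counted for the wrong gene, so these may not be separate responses. The vasodilator peptide gene Adm had 21.7, 18.9 and 23.6 CPM in SmoM2, 41.4 and 65.4 in Gli3FF and 76.2 to 107 in wild type. Its direct difference (log2 change 1.32, SE 0.33, adjusted p = 0.0287) was lost without Gli3FF replicates 1 or 2, or SmoM2 replicates 1, 2 or 3 (adjusted p 0.0505 to 0.254).

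The interferon-inducible genes Ifi205 and Ifi211, neighbours of one family whose reads may be split between near-identical copies, were also in the SmoM2-only group. Ifi205 had 118, 140.1 and 145 CPM in SmoM2, 699 and 502 in Gli3FF and 336, 366, 331, 349 and 368 in wild type, so the routes lay on opposite sides of the controls. It fell in SmoM2 (log2 change -1.38, SE 0.22, adjusted p = 0.00482), a call lost without SmoM2 replicate 1 (adjusted p 0.0612), and its direct difference (log2 change 2.16, SE 0.26, adjusted p = 5.47e-05) was kept in every setting. The rise in Gli3FF was not called (adjusted p = 0.0595), although DESeq2 called it (adjusted p 0.0087). Ifi211 had 24.5, 30.9 and 31.8 CPM in SmoM2, 119.9 and 83.3 in Gli3FF and 64.0 to 98.7 in wild type (log2 change 1.81, SE 0.25, adjusted p = 0.000218). Of 32 tested interferon response genes, 2 were higher and 0 lower in the direct comparison, against 1.57% and 1.33% of all genes. Against wild type 3 fell in SmoM2 and 2 in Gli3FF, against 0.0779% and 2.36% of all genes. The protease gene Ctsh had 79.2, 103 and 127 CPM in SmoM2, 336 and 239 in Gli3FF and 216 to 247 in wild type. Its direct difference (log2 change 1.48, SE 0.29, adjusted p = 0.00472) was lost without Gli3FF replicate 1 (adjusted p 0.179), and its fall in SmoM2 without SmoM2 replicates 1, 2 or 3, or wild type replicates 1, 2, 3, 4 or 5 (adjusted p 0.0555 to 0.294).

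The 2 SmoM2-only genes that rose were Mest and Filip1l. Mest, an imprinted gene of the hydrolase fold family, had 144, 129 and 165 CPM in SmoM2, 29.1 and 27.1 in Gli3FF and 47.6, 23.7, 19.5, 26.7 and 20.9 in wild type. Gli3FF lay within the wild type range and SmoM2 far above both (log2 change 2.40, SE 0.34, adjusted p = 0.000907 against wild type, direct log2 difference -2.38, adjusted p = 0.00599). The direct call was lost without Gli3FF replicates 1 or 2 (adjusted p 0.0593 to 0.127). Filip1l, a filamin-interacting protein, had 179, 159 and 152 CPM in SmoM2, 48.1 and 36.6 in Gli3FF and 49.4 to 69.6 in wild type (log2 change 1.38, SE 0.26, adjusted p = 0.0225 against wild type). Its direct difference (-1.95, adjusted p = 0.00326) was lost without Gli3FF replicate 2 (adjusted p 0.053), and its rise in SmoM2 without SmoM2 replicates 1, 2 or 3, or wild type replicates 1, 2, 3, 4 or 5 (adjusted p 0.0539 to 0.153). With matched wild type sets 2 of the 9 genes kept their place, and with wild type 4 and 5 as the only controls the group grew to 155 genes.

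**Figure D4:**
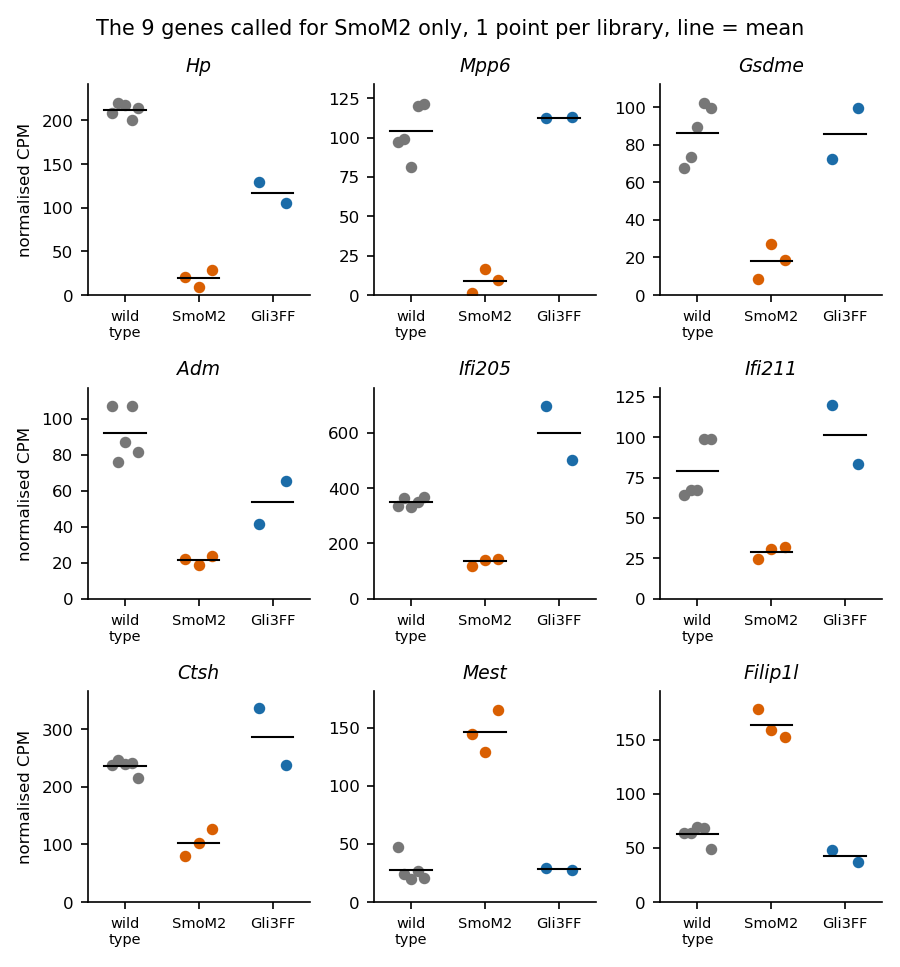
Normalised CPM of the 9 genes called for SmoM2 only, with 1 point per library (5 wild type, 3 SmoM2, 2 Gli3FF) and a line at each group's mean, on linear axes from 0. Hp, Mpp6, Gsdme, Adm, Ifi205, Ifi211 and Ctsh are lowest and Mest and Filip1l highest in the 3 SmoM2 libraries.

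A further 185 genes were called in the direct comparison without a call in either route against wild type. Igfbp5, an insulin-like growth factor binding protein, was one of them, with 93.2 and 166 CPM in Gli3FF, 474, 733 and 482 in SmoM2 and 158 to 241 in wild type. The SmoM2 libraries lay above all others, and the direct difference in edgeR's test (log2 change -2.12, SE 0.51, adjusted p = 0.0236) was lost without Gli3FF replicate 1, or SmoM2 replicate 2 (adjusted p 0.0946 to 0.424). Acta2, smooth muscle actin and the usual myofibroblast marker, had 71.2 and 80.0 CPM in Gli3FF, 199, 171 and 185 in SmoM2 and 26.8, 29.3, 33.0, 28.9 and 33.6 in wild type, in 3 separate steps. It rose in SmoM2 (log2 change 2.61, SE 0.52, adjusted p = 0.0313), a call lost without SmoM2 replicates 1, 2 or 3, or wild type replicates 1, 2, 3, 4 or 5 (adjusted p 0.0812 to 0.148), and neither its Gli3FF value (log2 change 1.32, adjusted p = 0.221) nor its direct difference (-1.29, adjusted p = 0.351) was called. Of 22 tested contractile genes, 0 were called in the direct comparison by edgeR, with 7 at an unadjusted p under 0.05. DESeq2 called 4 and limma voom 3, against 1988 and 1721 of 24383 genes. By edgeR 2 rose in Gli3FF (Myl9 and Tpm2) and 2 in SmoM2 (Acta2 and Myl9), against 2.09% and 0.127% of all genes. Beside them, the summed CPM of 17 smooth muscle and pericyte markers was 758 and 845 in Gli3FF, 606 to 702 in SmoM2 and 298 to 432 in wild type. Abcc9 alone held 337 and 393 CPM of the Gli3FF sums. For 4 of the 17 both Gli3FF libraries lay above all SmoM2 libraries and for 6 below, against 14.1% and 22.3% of all genes. Among the 6 was the smooth muscle myosin gene Myh11, with 0.0397 and 0.49 CPM in Gli3FF and 4.42 to 19.6 in SmoM2. The part of such cells was not tested.

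Markers of mesothelium, the cell layer that covers abdominal organs, were lower in Gli3FF than in SmoM2. Of 12 mesothelial markers, 0 were higher and 7 lower in Gli3FF than in SmoM2, against 1.57% and 1.33% of all genes. For 11 of the 12 markers both Gli3FF libraries lay below all SmoM2 libraries, against 22.3% of all genes. Their median direct log2 difference was -4.52, against -0.28 over all genes, also with Krt7 and Muc16 at their lower bounds, since both had 0 counts in Gli3FF. Summed over the list, mesothelial CPM was 67.2 and 41.3 in Gli3FF, 284 to 804 in SmoM2 and 186 to 473 in wild type. Msln, the mesothelial surface protein mesothelin, had 0.795 and 0 CPM in Gli3FF, 15.6, 54.3 and 38.7 in SmoM2 and 1.93, 32.9, 15.01, 14.3 and 20.0 in wild type. Krt19, a keratin of mesothelium and bile duct epithelium, had 1.51 and 0.736 CPM in Gli3FF, 10.8, 52.2 and 46.6 in SmoM2 and 10.6 to 30.5 in wild type. Lrrn4, a leucine-rich repeat membrane protein, had 0.358 and 3.26 CPM in Gli3FF, 26.3, 90.4 and 65.5 in SmoM2 and 12.9 to 42.6 in wild type. In all 3 genes both Gli3FF libraries lay below every other library. The SmoM2 mean of Muc16 was 755-fold above a floor of 3 counts over both Gli3FF libraries, a ratio that leaves out the spread between libraries. That spread was wide, with 14.4, 48.9 and 63.1 CPM in SmoM2 and 0.566 to 45.7 in wild type. The direct calls of Msln, Krt19, Lrrn4 and Muc16 (adjusted p = 0.0287, 0.0109, 0.00943 and 0.0444 in edgeR's test) were lost without Gli3FF replicates 1 or 2, or SmoM2 replicate 2 (adjusted p 0.0731 to 0.164) for Msln, without Gli3FF replicates 1 or 2 (adjusted p 0.107 to 0.144) for Krt19, without Gli3FF replicate 1 (adjusted p 0.229) for Lrrn4 and without Gli3FF replicates 1 or 2, or SmoM2 replicates 1, 2 or 3, or wild type replicates 2 or 3 (adjusted p 0.0547 to 0.407) for Muc16. Wt1, a transcription factor of mesothelium and of some fibroblasts, had 10.2 and 13.8 CPM in Gli3FF, 80.7, 135 and 80.2 in SmoM2 and 74.9, 66.9, 63.5, 90.6 and 84.8 in wild type (log2 change -3.04, SE 0.40, adjusted p = 0.00016), and this call was kept in every setting. Fewer mesothelial cells in a sort and less RNA per cell cannot be told apart in such bulk libraries, and the part of these cells in the other differences was not tested.

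Markers of other cell types differed in single genes. Of 15 tested cholangiocyte markers 2 were lower in Gli3FF than in SmoM2, against 1.33% of all genes. These were Krt7 and Krt19, which the mesothelial list also holds, and the defining marker Epcam was at 0 in both mutant groups and at 0.743 to 5.38 CPM in wild type. Of 10 tested endothelial markers 2 were lower in Gli3FF, namely Tek and Kdr, against 1.33% of all genes. Tek had 1.11 and 3.36 CPM in Gli3FF, 33.4, 26.2 and 32.4 in SmoM2 and 54.1 to 86.2 in wild type. Kdr had 0 counts in Gli3FF, 3.97, 14.4 and 4.84 CPM in SmoM2 and 0.63 to 2.34 in wild type, so every SmoM2 library also lay above wild type. The group means of Kdr were 138-fold above the floor of 3 counts in SmoM2 and 21.0-fold in wild type, without the spread between libraries. Their calls (adjusted p = 0.00113 and 0.0106) were lost without Gli3FF replicate 1 (adjusted p 0.0658) for Tek and without Gli3FF replicates 1 or 2 (adjusted p 0.0833 to 0.201) for Kdr. The summed endothelial CPM was 4.93 and 9.67 in Gli3FF, 38.8 to 44.5 in SmoM2 and 56.6 to 88.9 in wild type, mostly Tek in the last 2 groups, and the defining markers Tie1 and Cldn5 were at 0 in all 10 libraries. Cyp2e1, a drug-metabolising enzyme on the hepatocyte list, had 851 and 754 CPM in Gli3FF, 179, 172 and 215 in SmoM2 and 52.4 to 149 in wild type, while the hepatocyte gene Alb was at 0 in both mutant groups. The direct call of Cyp2e1 (log2 change 2.09, SE 0.52, adjusted p = 0.0288) was lost without Gli3FF replicates 1 or 2, or SmoM2 replicates 1, 2 or 3 (adjusted p 0.0589 to 0.24). Of 11 immune, 17 smooth muscle and 10 fibroblast markers tested, 0 were called in the direct comparison by edgeR. DESeq2 called 1, 4 and 3, against 1988 of 24383 genes, and 0, 5 and 5 had an unadjusted p under 0.05.

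Of 17 circadian clock genes, 6 differed between Gli3FF and SmoM2 and 10 between Gli3FF and wild type. This set was drawn up after the values were seen, and the labels do not give the hour of tissue collection. In the direct comparison 5 were higher and 1 lower in Gli3FF, against 1.57% and 1.33% of all genes. Against wild type 9 were higher and 1 lower in Gli3FF, against 2.09% and 2.36% of all genes. In SmoM2 0 clock genes were called by edgeR, with 1 at an unadjusted p under 0.05. DESeq2 called 0 and limma voom 1, against 276 and 1456 of 24383 genes. Nr1d1, a nuclear receptor of the clock's negative arm, had 275 and 287 CPM in Gli3FF, 32.03, 17.6 and 30.9 in SmoM2 and 51.0, 57.2, 42.9, 53.0 and 42.6 in wild type (log2 change 3.38, SE 0.86, adjusted p = 0.0304). Hlf, a clock output transcription factor, had 86.0 and 30.1 CPM in Gli3FF, 3.28, 2.93 and 1.58 in SmoM2 and 1.84 to 3.004 in wild type, and its direct difference (log2 change 4.48, SE 0.68, adjusted p = 0.000508) was kept in every setting. Npas2, of the positive arm, had 1.43 and 6.87 CPM in Gli3FF, 46.0, 45.4 and 45.5 in SmoM2 and 26.6 to 32.3 in wild type, and Arntl, its partner, had 0 and 6.52 CPM in Gli3FF, 47.7, 41.6 and 28.9 in SmoM2 and 22.5 to 55.1 in wild type. For both, the Gli3FF libraries lay below all others. Nr1d2, Per1 and Tef were also higher in Gli3FF than in SmoM2, by log2 differences of 2.81 (SE 0.65), 1.28 (SE 0.34) and 2.26 (SE 0.61). Direct calls were lost without Gli3FF replicates 1 or 2, or SmoM2 replicates 1, 2 or 3 (adjusted p 0.0691 to 0.16) for Nr1d1, without Gli3FF replicate 1, or SmoM2 replicates 1 or 2 (adjusted p 0.0818 to 0.179) for Nr1d2, without Gli3FF replicate 1, or SmoM2 replicate 2 (adjusted p 0.0519 to 0.39) for Npas2, without Gli3FF replicates 1 or 2, or SmoM2 replicates 1, 2 or 3, or wild type replicate 3 (adjusted p 0.0523 to 0.27) for Per1 and without Gli3FF replicates 1 or 2, or SmoM2 replicates 1, 2 or 3, or wild type replicates 1, 2, 3, 4 or 5 (adjusted p 0.0517 to 0.36) for Tef. The part of collection time in the Gli3FF differences was not tested.

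**Figure D5:**
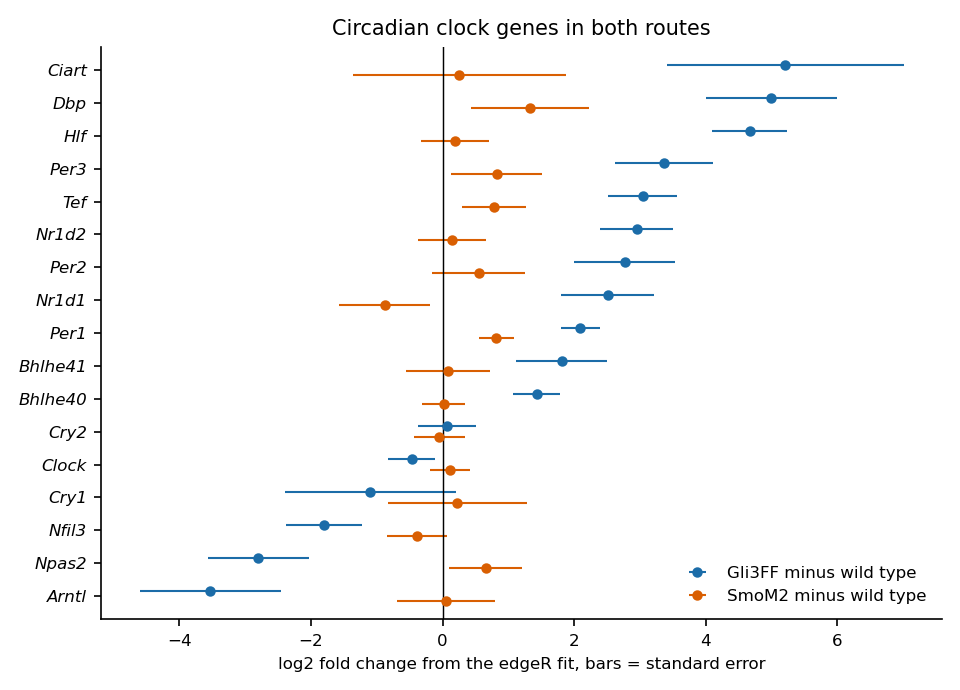
Log2 fold changes against wild type from the edgeR fit, with standard errors as bars, for 17 circadian clock genes in Gli3FF (2 libraries) and SmoM2 (3 libraries), ordered by the change in Gli3FF. The Gli3FF values run from strongly positive for Ciart, Dbp and Hlf to strongly negative for Npas2 and Arntl, and most SmoM2 values lie closer to 0.

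With matched wild type sets, 25 of the 50 named genes called in the direct comparison lost that call (adjusted p 0.0512 to 0.992). Named genes are here the 71 followed through the alternatives. Gpr161, Gpx3, Krt7, Osr2, Meis2, Klf2, Smad3, Sox4, Ebf2, Ccl19 and Tpm2 are not among the 71, and how their calls hold is not given. The 25 genes that lost the call are listed next. They were Adm, Ccn3, Cd59a, Chrdl1, Ctsh, Cyp2e1, Fblim1, Filip1l, Fn1, Gsdme, Hp, Ifi211, Igfbp5, Ly6i, Mest, Msln, Muc16, Npas2, Nr1d1, Nr1d2, Per1, Rbp4, Tef, Ucp2 and Wnt10b. Of the 25 named genes called for SmoM2 against wild type, 12 lost the call against wild type 1 to 3 (adjusted p 0.0525 to 0.254), namely Acta2, Ctsh, Emilin2, Filip1l, Fst, Inhba, Lepr, Mrap2, Myl9, Rbp4, Rgs2 and Sfxn1, while Ptch1, Hhip, Pla2g7 and Hp kept it. Of the 52 named genes called for Gli3FF, 10 lost the call against wild type 4 and 5 (adjusted p 0.0524 to 0.573), namely Chrdl1, Gli3, Inhba, Lrrn4, Ly6i, Msln, Npas2, Nr1d1, Ptch1 and Sfxn1. With only the Gli3FF and SmoM2 libraries in the fit, 13 of the 50 direct calls were lost (adjusted p 0.0539 to 0.13), those of Adm, Cd59a, Col4a5, Ctsh, Dpp4, Fblim1, Gsdme, Lrrn4, Mpp6, Msln, Npas2, Rspo1 and Ucp2. With limma voom 7 were lost (adjusted p 0.0789 to 0.258), those of Ccn3, Krt19, Lrrn4, Ly6i, Msln, Muc16 and Tek.

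Ly6i, a surface antigen gene with close paralogs and so of uncertain count, had 2.11 and 2.21 CPM in Gli3FF, 23.6, 27.0 and 38.5 in SmoM2 and 40.8, 38.1, 40.4, 2.88 and 3.41 in wild type. Wild type 4 and 5 lay at the Gli3FF level and wild type 1 to 3 at the SmoM2 level. Its direct difference of -3.78 (adjusted p = 0.0248) became -0.12 (adjusted p 0.992) with matched wild type sets. The same alternative left -5.27 for Sfrp2, -3.85 for Ahnak2 and 2.05 for Bmp4 on the log2 scale. Of the 3301 pseudogenes tested, 130 were higher and 61 lower in the direct comparison, and 125 were higher and 5 lower with matched sets. Among 15300 protein-coding genes the counts were 234 higher and 233 lower, and 71 and 96 with matched sets.

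Other gene lists held few called genes. Over all genes tested, 1.57% were higher and 1.33% lower in the direct comparison. Of the 9714 genes whose mean log2 CPM reached 3, 365 were higher and 233 lower. Of 39 fibrillar matrix genes 1 was higher and 2 lower in the direct comparison, and of 21 basement membrane genes 1 was higher and 0 lower. Against wild type, 8 fibrillar matrix genes rose and 3 fell in Gli3FF, against 2.09% and 2.36% of all genes and 446 and 438 of those 9714. In SmoM2 1 rose, against 0.127% of all genes. Of 25 growth factor genes 0 were higher and 4 lower in Gli3FF than in SmoM2, among them Fgf9 and Igfbp5. Of 25 tested oxidative phosphorylation genes 4 were higher and 0 lower, Ucp2 included. For 15 of the list both Gli3FF libraries lay above all SmoM2 libraries, against 14.1% of all genes and 2381 of those 9714. Of 30 cell cycle genes 1 was higher and 0 lower, and for 16 both Gli3FF libraries lay above all SmoM2 libraries, against 14.1% of all genes. Their median log2 difference was 1.68, against -0.28 over all genes. Of 15 adipogenic genes 0 were higher and 2 lower (Zfp423 and Ebf2), of 20 TGF-beta genes 0 and 1 (Smad3), and of 20 Wnt target genes 0 and 1 (Sox4). Of 25 acute-phase genes 2 were higher (Hp and Ccl19) and 0 lower, of 25 immediate-early genes 0 and 1 (Klf2), and of 38 limb and gut mesenchyme transcription factors 1 (Osr2) and 2 (Meis2 and Wt1). Heat shock and MHC class II genes had 0 calls in the direct comparison by edgeR, and 2 and 3 genes at an unadjusted p under 0.05. DESeq2 called 0 and 2, against 1988 of 24383 genes.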

How the data were processed

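RNA-seq libraries of sorted common bile duct mesenchymal cells were compared between mice with Gli3FF (2), SmoM2 (3) and wild type (5) genotypes. The authors deposited raw gene counts per library, as whole numbers, and their processing notes name mm10, while the aligner, counter, annotation and strandedness were not given in the sources used here. Where strand is unknown, overlapping and antisense genes cannot be told apart, and pseudogene counts depend on how shared reads were assigned. The counts of all 23 Pdgfra:CreERT2 libraries were fitted together in R 4.3.3 by edgeR 4.0.16 with its quasi-likelihood test, TMM factors and the default filterByExpr filter, so all groups share one estimate of the spread, and 24383 of 55401 entries passed the filter. P-values were adjusted by Benjamini-Hochberg over all genes tested, and called means an adjusted p under 0.05. Each standard error is the log2 change divided by the square root of its F statistic. Of the 55401 entries, 110 repeat a symbol, and 53292 of the 55291 distinct symbols were found in GENCODE M21, which gave gene types. The p-values cover the spread between these libraries only.

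The members and gene lists were chosen with earlier results of these data known. Named were pathway genes, the 10 largest direct differences in each direction among genes whose mean log2 CPM reached 3 and whose groups did not overlap, the 10 strongest genes of each route, up to 4 called members of each list and 8 shared genes, of which the text prints those it describes. Outside this rule, chosen after their values were seen, are Sfxn1, Fblim1, Emilin2, Rbp4, Acta2, Myl9, Wif1, Grem1, Msln, Muc16 and the clock genes other than Nr1d1, Nr1d2 and Hlf. Alternatives were DESeq2 1.42.0, limma 3.58.1 (voom), RLE scaling, other filters, only the groups compared, other sets of wild type libraries, a replicate block and leaving out each library. The replicate numbers were not taken to pair the samples. Same-numbered libraries of different groups had correlations of deviations of -0.37 to 0.19 over 7 pairs, and differently numbered ones of -0.4 to 0.4 over 24. The deviations of 2 Gli3FF libraries mirror each other, so this check cannot exclude pairing. No libraries of a group agreed within sampling noise. On simulated counts of 22669 genes for the direct comparison, 4 of 100 genes changed 2-fold and 31 of 100 changed 4-fold were recovered, with 1 false call. Some genes are not reported here.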

Additional observations from a re-analysis of the deposited data

Results flagged for a closer look

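In 8 genes, 1 of the 5 wild type libraries lay far from the other 4, past the 95% limit of Dixon's test for 5 samples (0.71). Chance alone flags about 1 in 20 groups, and groups of 2 or 3 libraries cannot be tested this way. Wild type replicate 5, whose description names the SmoFF allele, was high for Gli1 at 26.9 CPM, for Bmp4 at 37.6 CPM and for the mesothelial marker Muc16 at 45.7 CPM, and low for Ctsh at 216 CPM. Wild type replicate 1 was high for Per1 at 34.2 CPM and for Mest at 47.6 CPM. Wild type replicate 3 was high for Mrap2 at 0.599 CPM, and wild type replicate 4 was low for Ntrk2 at 92.7 CPM. For Bmp4, Per1, Mest, Mrap2 and Ntrk2 every library of the mutant group that was called lay outside the wild type range with these libraries included.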

How the results depend on the processing

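Of the 71 genes followed through the alternatives, none changed sign under any alternative run where its difference was called either as reported or under that alternative. Signs did change in 12 direct, 35 Gli3FF and 28 SmoM2 values that were called in neither, such as the direct difference of Mrap2 (-1.81, up to 1.53) and the Gli3FF change of Gli1 (0.45, down to -0.73). The direct comparison called 706 genes, and 1988 with DESeq2, 1721 with limma voom, 1214 without a filter, 449 with protein-coding genes only (190 higher, 259 lower), 407 with only the groups compared and 318 with matched wild type sets (205 higher, 113 lower). Gli3FF against wild type called 1085 genes, and 2372 with DESeq2, 1654 without a filter and 1293 with limma voom, where SmoM2 had more. SmoM2 against wild type called 50 genes, and 276 with DESeq2, 1456 with limma voom, 394 without a filter, 266 with only the groups compared, 124 with genes whose mean log2 CPM reached 3 (a setting chosen after seeing the data), 97 with protein-coding genes only, 354 with wild type 4 and 5 as controls and 22 with wild type 1 to 3, which are its matched set (22). The Gli3FF-only group of 508 became 1376 with DESeq2, 793 without a filter, 262 with matched wild type sets and 248 with only the groups compared. The SmoM2-only group of 9 became 47 with DESeq2, 270 with limma voom, 73 without a filter, 20 with genes whose mean log2 CPM reached 3, 155 with wild type 4 and 5 as controls and 2 with matched wild type sets.

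Leaving out each library in turn gave 134 to 686 genes in the direct comparison, 319 to 1028 for Gli3FF, 17 to 47 for SmoM2, 86 to 466 Gli3FF-only and 4 to 7 SmoM2-only genes. With 1 Gli3FF library left out, the lone library was assumed to vary like the other groups. With the replicate number as a block, the counts were 540, 748 and 37 for the 3 comparisons, 347 Gli3FF-only and 7 SmoM2-only, and 7 of the 50 named direct calls were lost (Adm, Cyp2e1, Igfbp5, Nr1d1, Per1, Rbp4 and Tef, adjusted p 0.0539 to 0.0764). These numbers were not shown to pair the samples, so the block is not known to be a better matched fit. With 2 Gli3FF libraries, most 2-fold and 4-fold changes in the simulated counts were out of reach of the direct comparison. The cause of the differences between settings was not tested.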
